A study of Mus musculus with 12 samples.

Results

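The V-ATPase, the cathepsins and the other proteins that acidify the lysosome and degrade its cargo are encoded by the 38 genes described here. They were chosen by name and function, not by a measured value, though earlier results of these data were known. They form a small set among the 55401 genes of the count table. The set holds 16 subunits and accessory subunits of the V-ATPase, 2 lysosomal membrane proteins, 8 cathepsins, the protease legumain (Lgmn), the thiol reductase GILT (Ifi30), the cathepsin inhibitor cystatin C (Cst3), 2 glycosidases, 2 cholesterol transfer proteins, the transcription factors Tfeb and Tfe3, the calcium channel Mcoln1 and the precursors Psap and Grn. All were measured by RNA sequencing in 12 libraries, and 37 of the 38 passed the expression filter.

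The libraries came from Sp37A3, an immature dendritic cell (DC) line derived from mouse spleen, grown with GM-CSF and M-CSF. Control cells (CtrV) were transduced with an empty lentiviral CRISPR vector. EKO-labelled cells were transduced with the same vector carrying a guide against Siglece, and several clones screened for loss of the Siglec-E protein were pooled. Siglec-E is an inhibitory receptor for sialic acids. Each line was either left unpulsed or pulsed for 2 h with 0.1 mg/ml ovalbumin (OVA), and every library came from cells stimulated with lipopolysaccharide (LPS), with 24 h between stimulation and harvest, so no group without LPS was measured. The LPS dose of the pulsed cells was 0.1 µg/ml. The 4 groups held 3 libraries each, numbered replicates 1 to 3. Nothing in the labels says whether replicates were separate cultures, so p-values measure the spread between these libraries, which may be technical. A control line made with an unrelated guide was not among the groups, and the transduction and cloning of the EKO-labelled cells cannot be told apart from the edit.

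In the lysosome, the V-ATPase pumps protons across the membrane. Its V1 sector hydrolyses ATP in the cytosol and drives a rotor in the membrane-embedded V0 sector, through which protons pass. Acid pH activates cathepsins, which cut endocytosed proteins into peptides and, in DCs, trim the invariant chain from MHC class II molecules. Maturing DCs are known for changes in lysosomal acidity and protease activity that decide how much antigen survives for presentation. Many lysosomal genes share a promoter element, the CLEAR element, that is bound by TFEB and its relatives.

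Library totals ranged from 27116201 to 39698572 counts, so 3 counts corresponded to 0.0785 to 0.110 CPM, the count scaled to a common library total. Siglece mRNA, the targeted gene, was read at 153, 150.2 and 162 CPM in unpulsed CtrV libraries, 152, 153 and 163 in OVA-pulsed CtrV libraries, 166, 222 and 235 in unpulsed EKO-labelled libraries and 174, 208 and 202 in OVA-pulsed EKO-labelled libraries. Every EKO-labelled library was above every CtrV library, so Siglece mRNA was not lower in the cells labelled EKO. The study reported minimal or absent Siglec-E protein in the pooled clones, which mRNA counts do not measure. These libraries are called EKO-labelled throughout. Replicate 1 of the EKO-labelled groups stood apart from replicates 2 and 3. Its counts differed from theirs by a chi-square per degree of freedom of 26.2 to 45.3, compared with 7.52 and 11.9 between replicates 2 and 3. Replicate 3 of the unpulsed CtrV group also stood apart, at 25.4 and 23.4 from replicates 1 and 2, which differed from each other by 4.86, and the OVA-pulsed CtrV libraries differed by 7.98 to 21.3. DC markers were high in every library, with 9 genes summing to 24266 to 26733 CPM. The 9 macrophage markers examined, all detected, summed to 2268 to 2567 CPM in CtrV and 3313 to 3888 CPM in EKO-labelled libraries, and 7 of them were higher in EKO-labelled cells in each comparison. Bone-resorbing osteoclasts use many of the genes described here. Of 7 osteoclast markers, Dcstamp alone passed the filter, and it was higher in EKO-labelled cells in each comparison. Acp5, Ctsk, Mmp9, Calcr, Ocstamp and Oscar each had group means under 1 CPM. The T cell markers Cd3e and Cd3g and the neutrophil markers S100a8, S100a9 and Ly6g had 0 counts in every library. The 4 plasmacytoid DC markers summed to 67.0 to 125 CPM in CtrV and 154 to 278 CPM in EKO-labelled libraries, nearly all of it Bst2, and Tcf4 was at 0. The 1 plasmacytoid DC marker tested was higher in EKO-labelled cells in each comparison. The 3 B cell markers summed to 1.07 CPM or less. In bulk RNA, fewer cells of a kind and less RNA per cell cannot be told apart.

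The lines differed in many lysosomal genes, in both directions. In OVA-pulsed cells, 16 members were higher and 10 lower in the EKO-labelled line and 11 did not pass (quasi-likelihood test of edgeR, Benjamini-Hochberg adjusted over all 14079 tested genes). The members called made up 70.3% of the 37 tested, compared with 47.0% of all tested genes, of which 25.1% were higher and 21.9% lower. In unpulsed cells, 13 members were higher and 9 lower, or 59.5%, compared with 46.4% of all tested genes, 24.5% higher and 21.9% lower. Members and all tested genes were not matched for expression level, so the larger shares are not shown to be particular to lysosomal genes. Sizes were close to those of genes in general. The median absolute log2 fold change was 0.24 over members and 0.21 over all tested genes in OVA-pulsed cells, and 0.23 and 0.21 in unpulsed cells. Signed medians were 0.04 over members in OVA-pulsed cells and 0.05 in unpulsed cells, beside 0.00 over all genes in both. Members with an absolute log2 fold change of at least 1 were Ctsl and Cst3, 2 of 37 in each comparison, whereas 9.01% of all tested genes in OVA-pulsed cells and 8.81% in unpulsed cells passed that limit. The 21 members called in both comparisons all kept their sign. Of all 14079 tested genes, 0 were called for a dependence of the line difference on pulsing. How many of all genes were called in both with the same sign was not counted, so this is not shown to be particular to the members. The libraries of the lines did not overlap for 26 members in OVA-pulsed cells (15 above and 11 below CtrV) and for 22 in unpulsed cells (14 above and 8 below). Among all tested genes, 52.9% and 47.1% did not overlap. The macrophage and plasmacytoid DC marker sums moved with the same contrast, and their part in these counts was not tested.

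The V-ATPase members that passed were all higher, whereas the other members split. Of the 15 tested, 10 were higher in EKO-labelled OVA-pulsed cells and 0 were lower, beside 25.1% higher and 21.9% lower over all tested genes, with a median log2 fold change of 0.20 and a range from -0.09 to 0.69. In unpulsed cells 7 were higher and 0 lower, beside 24.5% and 21.9% of all tested genes, with a median of 0.13. At an unadjusted p under 0.05 edgeR also had 0 lower V-ATPase members in either comparison, as did DESeq2 and limma voom after adjustment. Outside the set, the V-ATPase gene Atp6v0a2 was lower in both comparisons, and Rnasek was lower in unpulsed cells at -0.23 (adjusted p = 0.019) and had -0.18 (adjusted p = 0.059) in OVA-pulsed cells. Among the other 22 members, 6 were higher and 10 lower in OVA-pulsed cells (median -0.13) and 6 higher and 9 lower in unpulsed cells (median -0.12). The difference between these subsets was not tested.

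**Figure D1:**
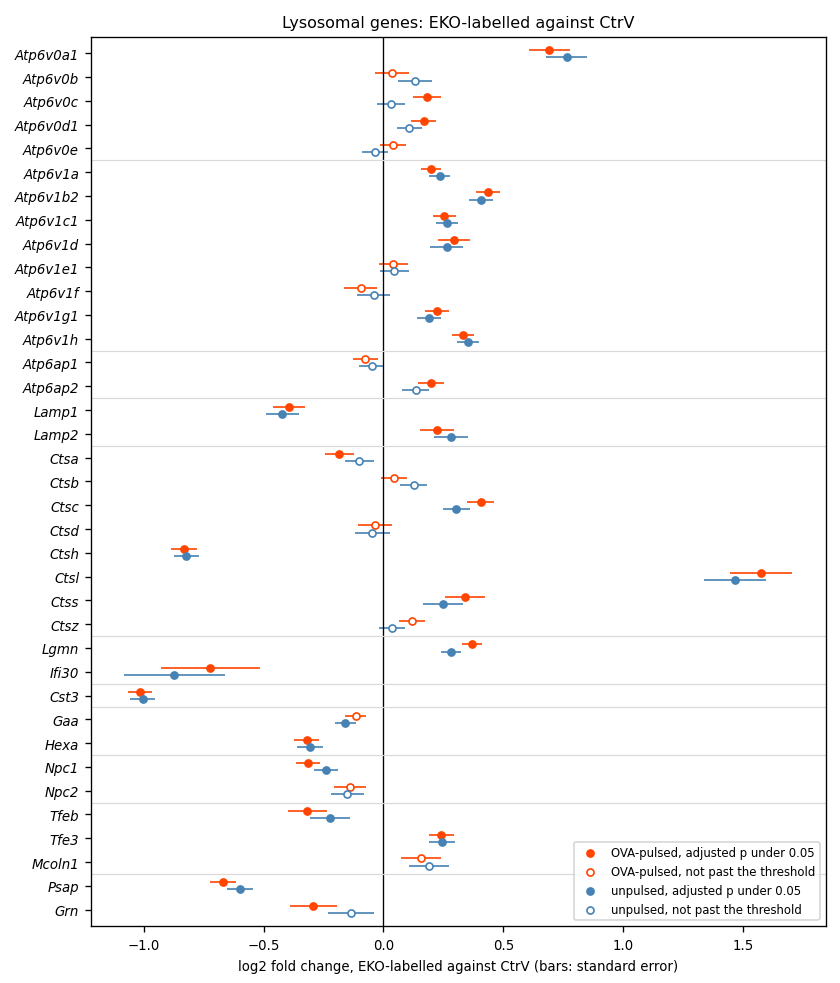
Log2 fold change of the 37 tested members, EKO-labelled against CtrV, in OVA-pulsed (red) and unpulsed (blue) cells, with the standard error as a bar and filled points for an adjusted p under 0.05. Horizontal lines separate the roles. V-ATPase genes at the top lie between -0.09 and 0.76, while Cst3 lies at -1.02 and -1.005 and Ctsl at 1.58 and 1.47.

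Levels of different genes were compared as CPM per kilobase of exon. Cst3 was by far the most abundant member, with a mean of 3826 over the 12 libraries, followed by the cathepsins Ctsz (636) and Ctss (415). Psap (183), Grn (149) and Hexa (110.3) came next. The most abundant V0, V1 and accessory genes of the V-ATPase were Atp6v0d1 (108), Atp6v1g1 (91.6) and Atp6ap2 (84.3), and Lamp1 (85.6) exceeded Lamp2 (24.5). The endosomal proteases Ctsb (24.01) and Ctsd (21.4), usually prominent in macrophages, were at a fraction of Ctss. Of the Ctsd exon bases, 34.4% are shared with Gm49369 on the same strand, whose counts were 53.8% to 57.1% of those of Ctsd. Ctsb has 12.8% of its exon bases opposite Fdft1. How reads at these places were assigned was not measured, so both levels are uncertain. Mcoln1 (2.15), Ctsl (1.45) and Atp6v0d2 (0.00859) were the lowest. With the longest annotated transcript as the length, Cst3, Ctsz and Ctss kept ranks 1 to 3, but Atp6ap1 (111) passed Atp6ap2 (94.9), and Ctsc rose to 173 from 95.7.

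Promoter sequences were examined because the CLEAR element is the known shared feature of these genes. RefSeq promoters (GRCm38.p6, 250 bases before to 50 bases after the start of transcription) were found for 30 of the 38 members. Atp6v0d2, Atp6v1b2, Atp6v1c1, Atp6v1g1, Atp6v1h, Ctsb, Ctsh and Npc1 were not matched. The E-box CACGTG, which reads alike on both strands, lay in a promoter of 12 of the 30 genes (40.0%), compared with 8.09% of all 27025 genes. Its extended form TCACGTGA, the centre of the CLEAR element, always contains an E-box and lay in 7 of the 30 (23.3%), compared with 1.12% of all genes. The stretches that hold the extended form, and the 4 E-boxes of Lamp1, are given 5′ to 3′ on the strand of the gene, with both kinds of match in capitals and at most 20 bases on each side, except that the Mcoln1 stretch reaches back to its further E-box.
Atp6v0d1, chr8:105566041-105566088 (- strand): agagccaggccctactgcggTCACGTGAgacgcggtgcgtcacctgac
Atp6v0e, chr17:26676378-26676425 (+ strand): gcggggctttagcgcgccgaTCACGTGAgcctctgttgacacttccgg
Atp6v1a, chr16:44139364-44139411 (- strand): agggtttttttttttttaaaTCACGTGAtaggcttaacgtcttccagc
Ctsa, chr2:164833740-164833802 (+ strand): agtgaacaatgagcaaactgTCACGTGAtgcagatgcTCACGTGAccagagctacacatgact
Ctsd, chr7:142387899-142387946 (- strand): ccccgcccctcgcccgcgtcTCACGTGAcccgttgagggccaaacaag
Ifi30, chr8:70766833-70766880 (- strand): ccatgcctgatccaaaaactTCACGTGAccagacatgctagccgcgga
Mcoln1, chr8:3500448-3500500 (+ strand): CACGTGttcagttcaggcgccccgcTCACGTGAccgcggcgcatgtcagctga
Lamp1, chr8:13159080-13159171 (+ strand): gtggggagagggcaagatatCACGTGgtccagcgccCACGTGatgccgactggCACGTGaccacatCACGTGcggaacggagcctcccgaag
The match in Atp6v0d1 spans the annotated start. Ctsa carries a pair of matches across the start of its downstream promoter, while its upstream promoter holds 0 matches. In Atp6v1a, Ctsd and Ifi30 the match was centred at -128, -95 and -193 bases from the start.

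**Figure D2:**
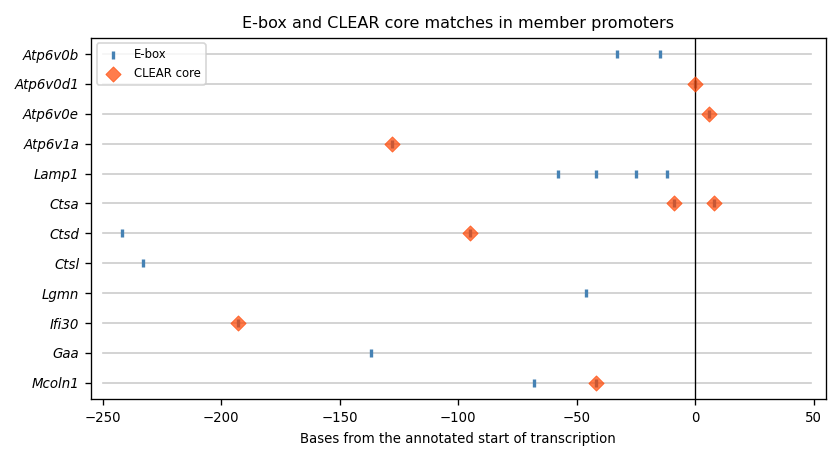
Position of each E-box (blue tick) and extended CLEAR core (red diamond) in the promoters of the 12 members with a match, in bases from the annotated start of transcription. Each grey line spans the 300 bases searched, and the extended matches lie between -193 and 8 bases.

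Genes with these matches were called in both directions. Of the 7 genes with the extended match, Atp6v0d1 and Atp6v1a were higher, Ctsa and Ifi30 lower and Atp6v0e, Ctsd and Mcoln1 not called in OVA-pulsed cells, with a median log2 fold change of 0.04. Of the 12 genes with an E-box, 4 were higher, 3 lower and 5 not called (median 0.04), and of the 18 genes without one, 8 were higher, 5 lower and 5 not called (median 0.08). Among all tested genes, 25.1% were higher and 21.9% lower. The calls of Atp6v0d1, Ctsa and Ifi30 were lost without certain single libraries. In unpulsed cells, 1 of the 7 was higher, 1 lower and 5 not called (median -0.03). Of the 12 there, 3 were higher, 3 lower and 6 not called (median 0.04), and of the 18, 6, 4 and 8 (median 0.03). Among all tested genes in unpulsed cells, 24.5% were higher and 21.9% lower. Differences between genes with and without a match were not tested. A match to these letters describes the sequence and does not show binding.

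Within the V0 sector, subunit a carries the proton channels and directs the pump to a membrane, and its gene Atp6v0a1 (ENSMUSG00000019302, chromosome 11 from 101009452 to 101063719, plus strand of GRCm38) had the largest rise of the V-ATPase. Atp6v0a1 stood at 145, 134 and 127 CPM in unpulsed CtrV libraries, 151, 131 and 142 in OVA-pulsed CtrV libraries, 206, 237 and 247 in unpulsed EKO-labelled libraries and 217, 224 and 244 in OVA-pulsed EKO-labelled libraries. Every EKO-labelled library lay above every CtrV library. The log2 fold change was 0.69 ± 0.085 (SE, adjusted p = 7.8e-05) in OVA-pulsed cells and 0.76 ± 0.086 (SE, adjusted p = 4.2e-05) in unpulsed cells, a rise of 1.61-fold and 1.70-fold. The related subunit a genes were outside the 38 and were read for comparison. Atp6v0a2, whose product serves the Golgi, was lower, at -0.36 ± 0.047 (SE, adjusted p = 0.00013) in OVA-pulsed and -0.34 in unpulsed cells. Tcirg1, which encodes subunit a3 of late endosomes, lysosomes and the osteoclast border, was higher, at 0.47 ± 0.067 (SE, adjusted p = 0.00023) and 0.39. Atp6v0a1 therefore took a larger share of the summed level per length of these 3 genes, 44.4, 43.6 and 40.8% in unpulsed and 45.5, 43.01 and 42.8% in OVA-pulsed CtrV libraries against 53.6, 53.4 and 54.1% and 51.7, 52.3 and 53.3% in EKO-labelled libraries. The share of Atp6v0a2 was 21.4% to 24.0% in CtrV and 12.5% to 14.4% in EKO-labelled libraries, and that of Tcirg1 overlapped at 31.9% to 37.0%.

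**Figure D3:**
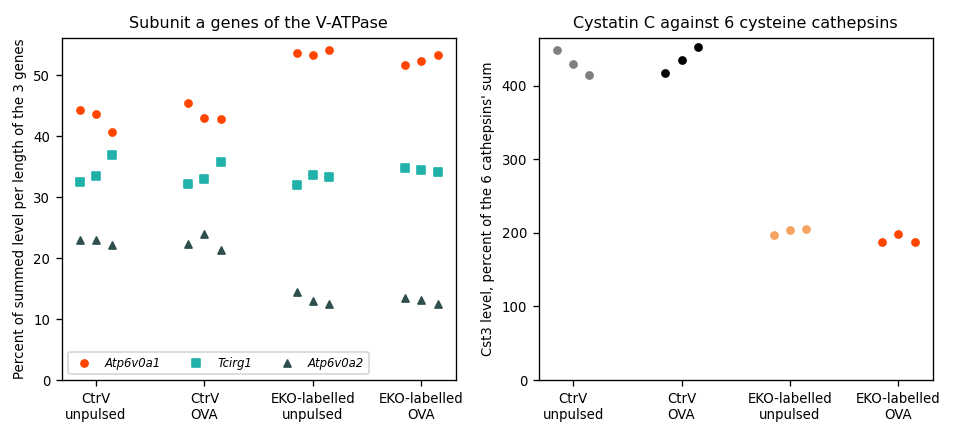
Left, the percent of the summed level per kilobase of the 3 subunit a genes that each gene took in each library. Right, the level of Cst3 per kilobase as a percent of the summed level of 6 cysteine cathepsins. Atp6v0a1 lay at 40.8% to 45.5% in CtrV and 51.7% to 54.1% in EKO-labelled libraries, and the cystatin ratio at 415% to 452% and 188% to 205%.

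Subunit d couples the rotor to the membrane ring. Its ubiquitous form Atp6v0d1 was measured at 187, 173 and 199 CPM in unpulsed CtrV libraries, 186, 176 and 181 in OVA-pulsed CtrV libraries, 208, 197 and 197 in unpulsed EKO-labelled libraries and 216, 192 and 202 in OVA-pulsed EKO-labelled libraries. The values of the OVA-pulsed lines came close without overlapping, and the unpulsed ones overlapped. EKO-labelled cells differed by a log2 fold change of 0.17 ± 0.052 (SE, adjusted p = 0.022) in OVA-pulsed cells and 0.11 ± 0.052 (SE, adjusted p = 0.11) in unpulsed cells. Without the replicate block the OVA call was lost (adjusted p = 0.057), and it was also lost without CtrV replicate 1, 2 or 3 or EKO-labelled replicate 1 (log2 fold change 0.14 to 0.17, adjusted p from 0.063 to 0.11). Its isoform Atp6v0d2, known from osteoclasts and some macrophages, was near absent, with 1 to 4 counts in the unpulsed CtrV libraries (0.0353 to 0.137 CPM) and 0 counts in the other 9, and was not tested. The ring subunit Atp6v0c was called in OVA-pulsed cells only, at 0.18 ± 0.057 (SE, adjusted p = 0.024), beside 0.03 in unpulsed cells. Its dependence on pulsing, 0.15, did not pass (unadjusted p = 0.091). The Atp6v0c call was lost without the block (adjusted p = 0.083) and without CtrV replicate 2 or 3 or EKO-labelled replicate 1 or 2 (log2 fold change 0.13 to 0.18, adjusted p from 0.072 to 0.12). Of the summed counts of Atp6v0c and the pseudogenes Atp6v0c-ps1 and Atp6v0c-ps2, 74.7% to 76.1% stood at Atp6v0c in every library, and how reads were divided among these loci was not measured, so its values are uncertain. The V0 genes Atp6v0b and Atp6v0e did not pass, at 0.04 and 0.04 in OVA-pulsed cells and 0.13 and -0.03 in unpulsed cells.

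The V1 sector, which binds and splits ATP, had 6 of its 8 genes higher, the same 6, in both comparisons. Among all tested genes, 25.1% were higher in OVA-pulsed and 24.5% in unpulsed cells. The catalytic subunit gene Atp6v1a rose by a log2 fold change of 0.20 in OVA-pulsed and 0.23 in unpulsed cells, and Atp6v1b2, its partner in the ATP-binding head, by 0.44 and 0.41. Atp6v1b2 was read at 195, 187 and 196 CPM in unpulsed CtrV libraries, 203, 185 and 186 in OVA-pulsed CtrV libraries, 259, 261 and 245 in unpulsed EKO-labelled libraries and 266, 250.3 and 258 in OVA-pulsed EKO-labelled libraries, with no overlap between lines. The stator gene Atp6v1g1, the most abundant of the sector, stood at 97.3, 91.8 and 104 CPM in unpulsed CtrV libraries, 98.1, 90.2 and 97.6 in OVA-pulsed CtrV libraries, 109, 110.5 and 115 in unpulsed EKO-labelled libraries and 114, 110.2 and 109.95 in OVA-pulsed EKO-labelled libraries. Its groups did not overlap in either comparison, and the log2 fold change was 0.22 ± 0.050 (SE, adjusted p = 0.004) in OVA-pulsed cells and 0.19 ± 0.050 (SE, adjusted p = 0.01) in unpulsed cells. The unpulsed call for Atp6v1g1 was lost without CtrV replicate 2 (log2 fold change 0.16, adjusted p = 0.053). Atp6v1c1 and Atp6v1h, whose products control the docking of the sectors, rose by 0.25 and 0.33 in OVA-pulsed cells and by 0.27 and 0.35 in unpulsed cells. The rotor gene Atp6v1d rose by 0.29 and 0.26. Atp6v1e1 (0.04 and 0.05) and Atp6v1f (-0.09 and -0.04) did not pass. Between the accessory subunits, the (pro)renin receptor gene Atp6ap2 was measured at 205, 205 and 223 CPM in unpulsed CtrV libraries, 198, 198 and 217 in OVA-pulsed CtrV libraries, 219, 229 and 247 in unpulsed EKO-labelled libraries and 215, 251 and 238 in OVA-pulsed EKO-labelled libraries. Its OVA-pulsed values overlapped between lines, the log2 fold change was 0.20 ± 0.055 (SE, adjusted p = 0.012) in OVA-pulsed cells and 0.13 ± 0.055 (SE, adjusted p = 0.068) in unpulsed cells, and the OVA call was lost without CtrV replicate 2 or EKO-labelled replicate 2 (log2 fold change 0.12 to 0.16, adjusted p from 0.082 to 0.095). Atp6ap1 was read at 246, 235 and 261 CPM in unpulsed CtrV libraries, 229.5, 248 and 267 in OVA-pulsed CtrV libraries, 235, 236 and 245 in unpulsed EKO-labelled libraries and 229, 239.6 and 237 in OVA-pulsed EKO-labelled libraries, with values that overlapped, and its log2 fold changes were -0.08 and -0.05. Summed per length, the V1 genes reached 252 to 284 in CtrV and 289.9 to 307 in EKO-labelled libraries.

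The lysosomal membrane glycoproteins moved in opposite directions. LAMP-1 and LAMP-2 coat the inner face of the membrane, and LAMP-2 also serves autophagy. Lamp1 stood at 259.96, 249 and 274 CPM in unpulsed CtrV libraries, 277, 251 and 255 in OVA-pulsed CtrV libraries, 223, 185 and 178 in unpulsed EKO-labelled libraries and 215, 179.7 and 202 in OVA-pulsed EKO-labelled libraries. All EKO-labelled values were below all CtrV values, and replicate 1 was the highest of each EKO-labelled group. On the log2 scale, the fold change was -0.39 ± 0.068 (SE, adjusted p = 0.00079) in OVA-pulsed cells and -0.42 ± 0.068 (SE, adjusted p = 0.00054) in unpulsed cells. Lamp2 was measured at 211, 209 and 217 CPM in unpulsed CtrV libraries, 216, 205 and 221 in OVA-pulsed CtrV libraries, 225, 265 and 286 in unpulsed EKO-labelled libraries and 223, 264 and 265 in OVA-pulsed EKO-labelled libraries. In contrast to Lamp1, its EKO-labelled values were above all CtrV values, with replicate 1 the lowest of each EKO-labelled group and close to CtrV. The fitted log2 fold change was 0.22 ± 0.071 (SE, adjusted p = 0.024) in OVA-pulsed cells and 0.28 ± 0.071 (SE, adjusted p = 0.0083) in unpulsed cells. The OVA call for Lamp2 was lost without the replicate block (adjusted p = 0.061) and without CtrV replicate 2 or 3 or EKO-labelled replicate 2 or 3 (log2 fold change 0.16 to 0.22, adjusted p from 0.073 to 0.16).

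Among the 8 cathepsins, 3 were higher, 2 lower and 3 not called in OVA-pulsed cells, beside 25.1% higher and 21.9% lower over all tested genes. Cathepsin L degrades proteins broadly and cuts the invariant chain in thymic epithelium, and Ctsl (ENSMUSG00000021477, chromosome 13 from 64359337 to 64370890, minus strand) had the largest fold change of the set. Ctsl was read at 4.41, 4.55 and 6.25 CPM in unpulsed CtrV libraries, 4.38, 3.84 and 5.84 in OVA-pulsed CtrV libraries, 14.1, 13.5 and 14.3 in unpulsed EKO-labelled libraries and 15.5, 12.5 and 13.5 in OVA-pulsed EKO-labelled libraries. The lowest EKO-labelled library was above every CtrV library. The log2 fold change was 1.58 ± 0.13 (SE, adjusted p = 3.9e-06) in OVA-pulsed cells and 1.47 ± 0.13 (SE, adjusted p = 8.2e-06) in unpulsed cells, or 2.98-fold and 2.76-fold, at a level that stayed among the lowest of the set. Gm47123, which lies opposite 26.8% of its exon bases, had 0 counts in every library. Cathepsin S is the main protease of the invariant chain in DCs. Ctss stood at 465, 497 and 596 CPM in unpulsed CtrV libraries, 520.4, 479.5 and 482 in OVA-pulsed CtrV libraries, 638, 598 and 612 in unpulsed EKO-labelled libraries and 678, 585 and 613 in OVA-pulsed EKO-labelled libraries. Its unpulsed groups met at 596 and 598 CPM without overlap, and the log2 fold change was 0.34 ± 0.084 (SE, adjusted p = 0.0071) in OVA-pulsed cells and 0.25 ± 0.085 (SE, adjusted p = 0.033) in unpulsed cells. The unpulsed call for Ctss was lost without CtrV replicate 1 or 2 or EKO-labelled replicate 1, 2 or 3 (log2 fold change 0.14 to 0.28, adjusted p from 0.056 to 0.14). Ctsc, whose product activates serine proteases, rose by 0.41 in OVA-pulsed and 0.30 in unpulsed cells.

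The aminopeptidase cathepsin H fell. Ctsh (chromosome 9 from 90054152 to 90076089, plus strand) was measured at 369, 382 and 388 CPM in unpulsed CtrV libraries, 381, 376 and 343 in OVA-pulsed CtrV libraries, 224, 217 and 204 in unpulsed EKO-labelled libraries and 215, 203 and 199 in OVA-pulsed EKO-labelled libraries. The groups were far apart, with the highest EKO-labelled value at 224 and the lowest CtrV value at 343 CPM. EKO-labelled cells differed by a log2 fold change of -0.83 ± 0.053 (SE, adjusted p = 6.4e-07) in OVA-pulsed cells and -0.82 ± 0.053 (SE, adjusted p = 7.8e-07) in unpulsed cells. The carboxypeptidase gene Ctsa was called lower in OVA-pulsed cells only, at -0.18 ± 0.061 (SE, adjusted p = 0.029). That call was lost without the block (adjusted p = 0.087) and without CtrV replicate 1, 2 or 3 or EKO-labelled replicate 1 or 3 (log2 fold change -0.21 to -0.15, adjusted p from 0.051 to 0.13). Of the exon bases of Ctsa, 17.4% lie opposite Neurl2 and Pltp, and Pltp rose by 1.25. Ctsb, the cysteine protease most used as a lysosomal marker, was read at 142, 130.01 and 146 CPM in unpulsed CtrV libraries, 147, 139 and 142 in OVA-pulsed CtrV libraries, 144, 157 and 154 in unpulsed EKO-labelled libraries and 150.3, 140.5 and 151 in OVA-pulsed EKO-labelled libraries. Its values overlapped in both comparisons, at log2 fold changes of 0.04 ± 0.055 (SE, adjusted p = 0.54) and 0.13 ± 0.056 (SE, adjusted p = 0.086). The aspartic protease gene Ctsd stood at 54.9, 42.3 and 54.4 CPM in unpulsed CtrV libraries, 54.6, 46.7 and 53.2 in OVA-pulsed CtrV libraries, 47.01, 47.5 and 51.6 in unpulsed EKO-labelled libraries and 48.2, 47.8 and 54.8 in OVA-pulsed EKO-labelled libraries. These values overlapped too, at -0.04 and -0.05, and 34.4% of the exon bases of Ctsd are shared with Gm49369 on the same strand. Ctsz, the most abundant cathepsin gene, was measured at 869.6, 855 and 970.2 CPM in unpulsed CtrV libraries, 907, 861 and 892 in OVA-pulsed CtrV libraries, 944, 902 and 912 in unpulsed EKO-labelled libraries and 1001, 903 and 985 in OVA-pulsed EKO-labelled libraries. Its log2 fold changes were 0.12 ± 0.053 (SE, adjusted p = 0.093) and 0.03. Summed per length, the 8 cathepsin genes reached 1204 to 1386 in CtrV and 1308 to 1436 in EKO-labelled libraries, which overlapped.

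**Figure D4:**
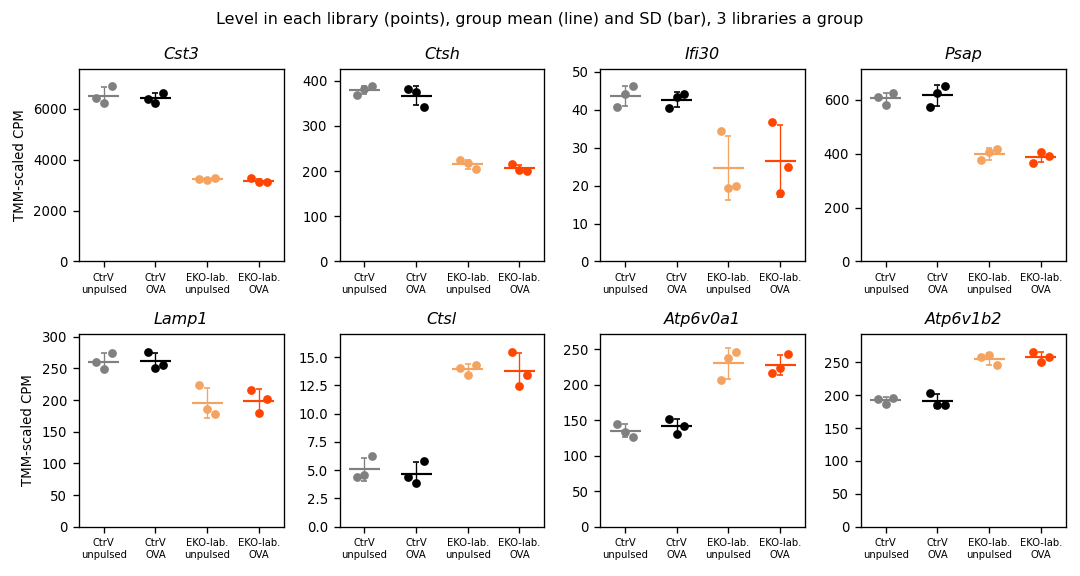
TMM-scaled CPM of 8 members in each library, by group, with the group mean as a line and the SD as a bar (3 libraries a group, axes from 0). Cst3, Ctsh, Ifi30, Psap and Lamp1 were lower and Ctsl, Atp6v0a1 and Atp6v1b2 higher in EKO-labelled cells, and Ifi30 in EKO-labelled replicate 1 stood at 34.5 and 36.8 CPM against 18.1 to 24.8 in replicates 2 and 3.

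Legumain and GILT also moved in opposite directions. Legumain cleaves after asparagine and starts the processing of several antigens and cathepsins. Lgmn was read at 68.8, 71.9 and 79.1 CPM in unpulsed CtrV libraries, 70.4, 69.9 and 75.8 in OVA-pulsed CtrV libraries, 85.6, 86.6 and 94.7 in unpulsed EKO-labelled libraries and 90.2, 90.4 and 98.9 in OVA-pulsed EKO-labelled libraries. All EKO-labelled libraries were higher than all CtrV libraries. On the log2 scale, the fold change was 0.37 ± 0.041 (SE, adjusted p = 3.7e-05) in OVA-pulsed cells and 0.28 ± 0.041 (SE, adjusted p = 0.00028) in unpulsed cells. GILT reduces disulfide bonds of antigens in the lysosome and is known as an interferon-gamma-inducible protein. Ifi30 (chromosome 8 from 70762774 to 70766663, minus strand) stood at 40.8, 44.1 and 46.2 CPM in unpulsed CtrV libraries, 40.5, 43.4 and 44.2 in OVA-pulsed CtrV libraries, 34.5, 19.4 and 19.97 in unpulsed EKO-labelled libraries and 36.8, 18.1 and 24.8 in OVA-pulsed EKO-labelled libraries. The EKO-labelled values were below all CtrV values, but replicate 1 lay nearer to CtrV than to its own group. The fitted log2 fold change was -0.72 ± 0.21 (SE, adjusted p = 0.015) in OVA-pulsed cells and -0.87 ± 0.21 (SE, adjusted p = 0.006) in unpulsed cells, with the largest standard error of the members tested. In OVA-pulsed cells the call was lost without CtrV replicate 2 or 3 or EKO-labelled replicate 2 or 3 (log2 fold change -0.71 to -0.54, adjusted p from 0.054 to 0.066). It was also lost in both comparisons when replicate 2 or replicate 3 was left out of all groups.

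Cystatin C is a secreted and endosomal inhibitor of cysteine cathepsins. Cst3 (ENSMUSG00000027447, chromosome 2 from 148871722 to 148875692, minus strand) was measured at 6448, 6234 and 6892 CPM in unpulsed CtrV libraries, 6381, 6254 and 6642 in OVA-pulsed CtrV libraries, 3249, 3214 and 3285 in unpulsed EKO-labelled libraries and 3266, 3119.8 and 3139 in OVA-pulsed EKO-labelled libraries. The EKO-labelled libraries lay in a narrow band at about 0.494 of the CtrV level. The log2 fold change was -1.02 ± 0.051 (SE, adjusted p = 1.2e-07) in OVA-pulsed cells and -1.005 ± 0.051 (SE, adjusted p = 1.5e-07) in unpulsed cells, the largest fall of the set. As a share of all counts, Cst3 took 0.640 to 0.703% in CtrV and 0.307 to 0.322% in EKO-labelled libraries, and all 38 members together took 1.35 to 1.48% and 1.01 to 1.05%. Per length, the Cst3 level was 415% to 452% of the summed level of the cysteine cathepsin genes Ctsb, Ctsc, Ctsh, Ctsl, Ctss and Ctsz in CtrV, and 188% to 205% in EKO-labelled libraries. These are mRNA ratios, and neither the proteins nor their activity was measured in these files.

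Of the precursor genes Psap and Grn, the glycosidase genes Hexa and Gaa and the cholesterol transfer genes Npc1 and Npc2, 4 were lower and 2 not called in each comparison. The share of all tested genes that were lower was 21.9% in each. Prosaposin is the precursor of the saposins, which present sphingolipids to their hydrolases. Psap (chromosome 10 from 60277627 to 60302597, plus strand) was read at 611, 582 and 624 CPM in unpulsed CtrV libraries, 573, 626 and 650.2 in OVA-pulsed CtrV libraries, 376, 405 and 419 in unpulsed EKO-labelled libraries and 366, 405 and 392 in OVA-pulsed EKO-labelled libraries. The groups did not overlap, and the log2 fold change was -0.67 ± 0.054 (SE, adjusted p = 3.6e-06) in OVA-pulsed cells and -0.60 ± 0.054 (SE, adjusted p = 8.5e-06) in unpulsed cells. Grn, which encodes progranulin, a partner of prosaposin, was called in OVA-pulsed cells only, at -0.29 ± 0.098 (SE, adjusted p = 0.03), beside -0.14 in unpulsed cells. The Grn call was lost without CtrV replicate 1 or EKO-labelled replicate 1, 2 or 3 (log2 fold change -0.32 to -0.20, adjusted p from 0.056 to 0.14). Hexa encodes the alpha chain of the hexosaminidase that degrades GM2 ganglioside, and stood at 244, 234 and 253 CPM in unpulsed CtrV libraries, 225, 245 and 262 in OVA-pulsed CtrV libraries, 194, 194 and 203 in unpulsed EKO-labelled libraries and 186, 202 and 197 in OVA-pulsed EKO-labelled libraries. All EKO-labelled values were below CtrV, at a log2 fold change of -0.32 ± 0.053 (SE, adjusted p = 0.00062) in OVA-pulsed cells and -0.31 ± 0.053 (SE, adjusted p = 0.00087) in unpulsed cells. Gaa, the acid alpha-glucosidase of glycogen, fell by 0.16 in unpulsed cells (adjusted p = 0.014) and had -0.12 ± 0.044 (SE, adjusted p = 0.051) in OVA-pulsed cells. The unpulsed call for Gaa was lost without EKO-labelled replicate 2 (log2 fold change -0.14, adjusted p = 0.063). NPC1 and NPC2 hand cholesterol out of the lysosome. Npc1 fell by 0.32 and 0.24 on the log2 scale. Npc2 was measured at 94.9, 81.5 and 103 CPM in unpulsed CtrV libraries, 96.5, 85.7 and 94.97 in OVA-pulsed CtrV libraries, 80.3, 83.02 and 86.8 in unpulsed EKO-labelled libraries and 84.00, 73.03 and 95.4 in OVA-pulsed EKO-labelled libraries. Its values overlapped, and its log2 fold changes were -0.14 ± 0.067 (SE, adjusted p = 0.11) and -0.15 ± 0.067 (SE, adjusted p = 0.09).

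Of the control genes Tfeb, Tfe3 and Mcoln1, 1 was lower, 1 higher and 1 not called in each comparison. Among all tested genes, 47.0% were called in OVA-pulsed and 46.4% in unpulsed cells. TFEB and TFE3 are related factors that enter the nucleus when mTORC1 is inactive and bind CLEAR elements. Tfeb was read at 21.5, 20.4 and 20.8 CPM in unpulsed CtrV libraries, 22.9, 20.9 and 22.1 in OVA-pulsed CtrV libraries, 15.4, 18.2 and 20.1 in unpulsed EKO-labelled libraries and 16.7, 17.6 and 18.7 in OVA-pulsed EKO-labelled libraries. The EKO-labelled values were all below CtrV, and replicate 1 was the lowest in both EKO-labelled groups. EKO-labelled cells differed by a log2 fold change of -0.32 ± 0.081 (SE, adjusted p = 0.0082) in OVA-pulsed cells and -0.22 ± 0.083 (SE, adjusted p = 0.046) in unpulsed cells. The unpulsed call for Tfeb was lost without CtrV replicate 1 or 2 or EKO-labelled replicate 1 or 2 (log2 fold change -0.25 to -0.12, adjusted p from 0.069 to 0.2). It was also lost without the replicate block (adjusted p = 0.07), with DESeq2 (adjusted p = 0.08), with the 6 compared libraries alone (adjusted p = 0.12), with RLE scaling and under both other filters, 13 of 17 other settings in all. Tfe3 stood at 84.2, 78.2 and 77.3 CPM in unpulsed CtrV libraries, 87.6, 80.9 and 78.9 in OVA-pulsed CtrV libraries, 91.9, 95.9 and 95.7 in unpulsed EKO-labelled libraries and 97.00, 95.5 and 99.6 in OVA-pulsed EKO-labelled libraries. All EKO-labelled values were higher, at a log2 fold change of 0.24 ± 0.053 (SE, adjusted p = 0.0036) in OVA-pulsed cells and 0.24 ± 0.053 (SE, adjusted p = 0.0036) in unpulsed cells. Mcoln1, the lysosomal calcium channel that activates TFEB through calcineurin, was measured at 14.98, 14.9 and 16.1 CPM in unpulsed CtrV libraries, 13.6, 14.05 and 17.8 in OVA-pulsed CtrV libraries, 17.3, 17.6 and 17.6 in unpulsed EKO-labelled libraries and 15.9, 17.98 and 16.6 in OVA-pulsed EKO-labelled libraries. The OVA-pulsed values overlapped, and the log2 fold changes were 0.16 ± 0.083 (SE, adjusted p = 0.14) and 0.19 ± 0.084 (SE, adjusted p = 0.086). Without OVA-pulsed CtrV replicate 3, Mcoln1 passed at 0.27 (adjusted p = 0.017).

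Pulsing with OVA left no detectable trace in the set. No member was called between OVA-pulsed and unpulsed cells in CtrV or in EKO-labelled cells, nor for a dependence of the line difference on pulsing, where 0 of 14079 genes (0.00%) were called in each of the 3 comparisons. At an unadjusted p under 0.05, edgeR named 0 members in each, and 231, 394 and 269 of all genes. These counts are below the share of 0.05 that this threshold gives without any effect, so the tests may be conservative and small effects may be missed. DESeq2 also called 0 members. The log2 fold change with pulsing ranged from -0.12 (Ctsl) to 0.07 (Tfeb) in CtrV and from -0.11 (Grn) to 0.11 (Ifi30) in EKO-labelled cells, and the difference between the lines' responses from -0.16 (Grn) to 0.15 (Atp6v0c). Each pulsing comparison shares its libraries with the line comparisons, whereas the OVA-pulsed and unpulsed line comparisons have no library in common. Since all cells received LPS, a response to LPS itself was not measured.

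**Figure D5:**
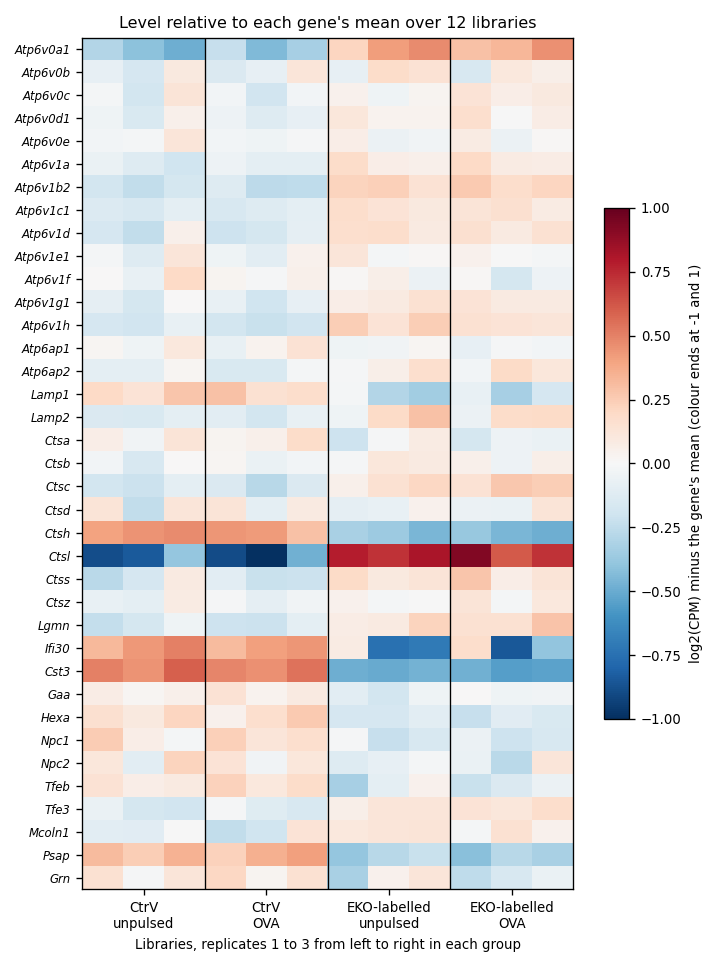
Level of the 37 tested members in each library, as log2 CPM minus the mean of the gene over the 12 libraries, with groups separated by lines and replicates 1 to 3 from left to right. The change of colour falls between the lines and not between unpulsed and OVA-pulsed cells, with the strongest contrast in Ctsl and Cst3, the members with an absolute log2 fold change of at least 1.

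Other lysosomal genes, a list of 86 outside the set, gave 66 tested genes. In OVA-pulsed cells 14 were higher and 24 lower, and in unpulsed cells 15 were higher and 24 lower, with medians of -0.05 and -0.04. These were 57.6% and 59.1% of the 66, beside 47.0% and 46.4% of all tested genes. Of 30 further hydrolases and their cofactors, 4 were higher and 15 lower in OVA-pulsed cells and 5 were higher and 13 lower in unpulsed cells, where 25.1% and 24.5% of all tested genes were higher and 21.9% lower in each comparison. Gm2a, the activator that presents GM2 to hexosaminidase, was read at 661, 602 and 614 CPM in unpulsed CtrV libraries, 603, 617 and 651 in OVA-pulsed CtrV libraries, 234, 235 and 252 in unpulsed EKO-labelled libraries and 218, 236 and 219 in OVA-pulsed EKO-labelled libraries, with no overlap. Its log2 fold change was -1.47 ± 0.061 (SE, adjusted p = 4.3e-08) in OVA-pulsed cells and -1.38 ± 0.061 (SE, adjusted p = 6.6e-08) in unpulsed cells, larger than that of Hexa or Psap. Sgsh, an enzyme of heparan sulfate breakdown, fell by 1.57 from a low level, 4.78 to 5.34 CPM in OVA-pulsed CtrV libraries. Arsb, which removes sulfate from dermatan sulfate, fell by 1.11. The lysosomal phosphatase gene Acp2 rose by 0.76 and the phospholipase gene Pla2g15 by 0.68. Slc11a1, the divalent metal transporter NRAMP1 of phagosomes, rose by 0.74 (adjusted p = 0.0087) at 1.99 to 4.70 CPM. These 6 genes had the same signs in unpulsed cells, where all passed.

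The calls differed in how far they held across settings. Under 17 other settings, 15 of the 26 calls in OVA-pulsed cells passed throughout, 9 higher and 6 lower. They were Atp6v0a1, Atp6v1a, Atp6v1b2, Atp6v1c1, Atp6v1d, Atp6v1h, Lamp1, Ctsc, Ctsh, Ctsl, Lgmn, Cst3, Hexa, Npc1 and Psap. In unpulsed cells 13 of 22 did so, 8 higher and 5 lower, the same genes without Atp6v1d and Npc1. With the 6 compared libraries alone, the unpulsed calls of Atp6v1d, Atp6v1g1, Ctss and Gaa were lost (adjusted p from 0.063 to 0.1). Upper-quartile scaling ended the OVA-pulsed calls of Atp6v0c and Atp6v0d1 and the unpulsed call of Ctss (adjusted p from 0.071 to 0.084), and dropping the expression filter ended those of Atp6v0c, Atp6v0d1 and unpulsed Gaa (adjusted p from 0.053 to 0.077). Leaving out the EKO-labelled replicate 1 library gave 22 called members in OVA-pulsed and 21 in unpulsed cells. Calls among all tested genes were not counted under these settings, so how far calls held is not shown to be particular to the members.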

How the data were processed

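Counts of reads per gene were deposited by the authors in 1 table of 12 columns, unnormalized, with no column left unused. According to the methods, reads were aligned to mm10 with STAR, 1 location was kept for reads with up to 10 equal hits, and read ends on the union of exons were counted with featureCounts and an Ensembl annotation. The library kit was stranded, and whether counting used the strand is not given in the sources used here. Genes were named, located and measured in length with GENCODE annotation of GRCm38, which is not the annotation of the counting. Testing was limited to the 14079 of 55401 genes whose log2 CPM exceeded 0 in 2 or more libraries, and used edgeR 4.0.16 in R 4.3.3 (TMM, quasi-likelihood, group and replicate number as covariates, all 12 libraries, Benjamini-Hochberg adjustment, threshold 0.05). The lines were compared with and without OVA, pulsing was compared within each line, and the interaction was tested. The block followed the study's methods. Deviations of same-numbered libraries of the lines correlated at 0.448, 0.292 and 0.289 for OVA-pulsed replicates 1, 2 and 3 and at 0.060, -0.012 and 0.263 for unpulsed ones, and those of pulsed and unpulsed libraries at 0.706, 0.351 and 0.411 in EKO-labelled and 0.077, 0.179 and 0.373 in CtrV cells. Every same-numbered pair was above 0.1 in the OVA-pulsed line comparison and the EKO-labelled pulsing comparison, and not every pair was in the other comparisons. The labels do not say whether same-numbered libraries were paired, and 3 correlations a comparison cannot settle it. Levels are TMM-scaled CPM, and levels per length are CPM per kilobase of exon union. DESeq2 1.42.0 and limma 3.58.1 were alternatives. On simulated counts made from these libraries for the OVA-pulsed comparison, edgeR recovered 72.0% of genes changed by 0.5 on the log2 scale. It recovered 95.0% of genes changed by 1, over 14079 genes, with 6.18% false calls. The simulation changed 100 genes by each size and had no replicate effect, whereas 47.0% of all tested genes were called in the measured libraries. Its rates may therefore not hold for the measured comparison. The members, the 86 other lysosomal genes, the cell type markers and the alternatives were chosen with earlier results of these data known. Genes shown by library were members with an adjusted p under 0.05 and an absolute log2 fold change of at least 0.5, the most abundant member of each role, a fixed set of well-known members, and, of the other lysosomal genes, the 3 largest rises and 3 largest falls in OVA-pulsed cells at a mean log2 CPM of at least 1, with Atp6v0a2 and Tcirg1. Further members, markers and Rnasek were named after their values were seen. Protein measurements were not analysed here.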

Additional observations from a re-analysis of the deposited data

How the results depend on the processing

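With an absolute log2 fold change of at least 1 as a further limit, 2 members remained called in OVA-pulsed and 2 in unpulsed cells. Of all tested genes, 9.01% and 8.81% passed that limit. Under the other settings given here, calls among all tested genes were not counted. Leaving out 1 library, or 1 replicate number of all groups, gave 15 to 23 called members in OVA-pulsed and 14 to 23 in unpulsed cells, against 26 and 22, and the lowest counts came without replicate 2, which leaves fewer libraries. Without the replicate block, 22 and 21 members were called. In OVA-pulsed cells, where same-numbered libraries of the lines deviated together, this ended the calls of Atp6v0c, Atp6v0d1, Lamp2 and Ctsa. In unpulsed cells, where not every such pair did so, leaving out the block ended that of Tfeb. The other lysosomal genes called were then 33 and 33, against 38 and 39, and no member was called for pulsing in either fit. DESeq2, limma voom, RLE and upper-quartile scaling, both other filters, a threshold of 0.01 and the 6 compared libraries alone gave 17 to 27 called members. No call changed sign. Among single members and settings, 1151 values stayed on the same side of the threshold, 95 lost it and 12 gained it. Levels per length moved with the longest transcript as the length, and Cst3 remained the highest. In simulated counts, with 100 genes changed by each size and no replicate effect, 72.0% of changes of 0.5 on the log2 scale were recovered. Smaller changes were not simulated, and members that did not pass may still differ.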
